A study of Homo sapiens with 18 samples.

Results

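The genes of the unfolded protein response and of the integrated stress response were followed in 6 clones of RPE1, a human retinal pigment epithelial line that has been immortalised. The members are 36 genes named by symbol and found by Ensembl identifier among the 57773 genes of the deposited table: 13 of an ER chaperone arm, 7 of an XBP1 arm and 16 of an ATF4 arm. All 36 were found. The groups are the tetraploid clones 4N-1, 4N-2 and 4N-3 and the diploid clones 2N-1, 2N-2 and 2N-3, each grown from 1 cell, with 3 biological replicates a clone (libraries A, B and C) and 18 libraries in all. Every clone, diploid ones included, came from cells that had lived through 2.5 uM ZM447439 for 72 h, an inhibitor of the Aurora kinases. Each 2N clone was picked from the plates of its 4N partner, which gives 3 pairs, and both clones of pair 2 had been stained with Hoechst 33342 before they were cloned again. The labels name no drug that strains the ER for the cultures that were sequenced, and each comparison asks how a tetraploid clone differs from its diploid partner. A clone is 1 isolate, so a difference within a pair is a difference between 2 clones.

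Proteins that enter the endoplasmic reticulum (ER) fold there with the help of chaperones, and when unfolded chains pile up 3 sensors in the ER membrane answer. ATF6 is cut to release a transcription factor that drives chaperone genes, ERN1 (IRE1) splices the XBP1 messenger so that it encodes an active factor, and EIF2AK3 (PERK) phosphorylates the translation factor eIF2. Phosphorylated eIF2 slows most translation but lets ATF4 be made, and other eIF2 kinases that sense amino acid shortage, haem shortage or double-stranded RNA end in the same step, which is why that arm is called the integrated stress response. ATF4 in turn drives genes for amino acid supply, redox balance and, under lasting stress, cell death. Processing of ATF6, splicing of XBP1 and phosphorylation of eIF2 are not visible in gene-level counts, so the values are messenger levels only.

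The libraries held 37.2 to 54.4 M reads in genes (M, mega), recovered from the deposited RPKM values. Levels are in reads per M, counted per library, a unit that is not divided by gene length. Levels are compared between genes only after division by the exonic length. Changes are log2 differences of 4N minus 2N with their standard error (SE), fitted with limma on log2(RPKM + 0.5) for the 28 members that reached 1 RPKM in at least 3 libraries. The other 8 members (ATF6, ERN1, DNAJC3, EIF2AK3, ATF3, TRIB3, CHAC1 and CTH) missed that minimum on an RPKM scale whose lengths include introns, and were fitted with limma-voom on the recovered reads, as were all 36 for comparison. The words rose and fell are kept for an adjusted p below 0.05 (Benjamini-Hochberg, over all genes tested), and a gene is called where its change was 2-fold or more as well. The tests are two-sided, and they measure the spread between replicate libraries of a clone. In bulk RNA, fewer cells with a messenger and less messenger per cell cannot be told apart.

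The libraries that stood apart most from those of their clone were 2, both in pair 3: library A of 2N-3 (2N-3 A) and library C of 4N-3 (4N-3 C). The reads of 2 libraries of a clone were compared by chi-square per degree of freedom, which grows as they differ. It was 151 for 2N-3 A against B or C, and 34.9 and 42.2 for 4N-3 C against A and B. Elsewhere it ran from 1.705 to 23.1, the highest for A against C of 4N-2, so the other clones were not equally even. On the second principal component of all tested genes, 2N-3 A had a score of 55.6, against -9.83 to 0.54 for the other 17 libraries, and it stood apart in many members: it held 1635 reads per M of CALR, 43.1 of CRELD2 and 282 of ATF4, against 1139 and 1165, 24.0 and 25.1, and 179 and 185 in libraries B and C of 2N-3. Library C of 4N-3 held 21.9 reads per M of ASNS and 146 of DDIT4, against 40.4 and 43.2, and 68.1 and 61.6, in libraries A and B of 4N-3. The spread is shared by all clones in the fit, so both libraries also widen the errors of pairs 1 and 2, and counts are given with and without them. Of 9 retinal pigment epithelium markers, OTX2, MITF and BEST1 were above 1 read per M, whereas RPE65, RLBP1, TYRP1, PMEL, TTR and SERPINF1 averaged below it, and their sum ran from 45.0 to 72.8 reads per M over the 18 libraries. In the other marker lists, KRT8 and KRT18 carried nearly all of the simple epithelium sum of 461 to 901 reads per M, CD68 that of blood and endothelium (27.1 to 148), and CD3E was at 0 in all libraries. These markers moved with the pairs. CD68 averaged 27.4 reads per M in 4N-1 and 45.8 in 2N-1 and fell by 0.71 (SE 0.09, limma adjusted p 0.000127), and it averaged 137 in 4N-2 and 48.9 in 2N-2 and rose by 1.46 (SE 0.09, adjusted p 1.93e-08). KRT18 rose by 0.72 in pair 1 and 0.42 in pair 2 (SE 0.15 each), KRT8 by 0.37 (SE 0.14) in pair 2, and OTX2 fell by 0.66 in pair 2, with adjusted p of up to 0.0458, and none of these 4 passed in pair 3. OTX2 was the only retinal pigment epithelium marker with an RPKM test, and 7 of the 9 were tested on reads. Of these 7, 1 rose and none fell in pair 1, where 10.0% and 9.04% of all genes did the same. In pair 2, 1 rose and 4 fell (20.4% and 21.4% of all genes), and none passed in pair 3. The simple epithelium sum was 712 to 734 reads per M in 4N-1 against 461 to 484 in 2N-1, and 698 to 740 in 4N-2 against 510 to 560 in 2N-2, and the part of these markers in the changes of the members was not tested.

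**Figure D1:**
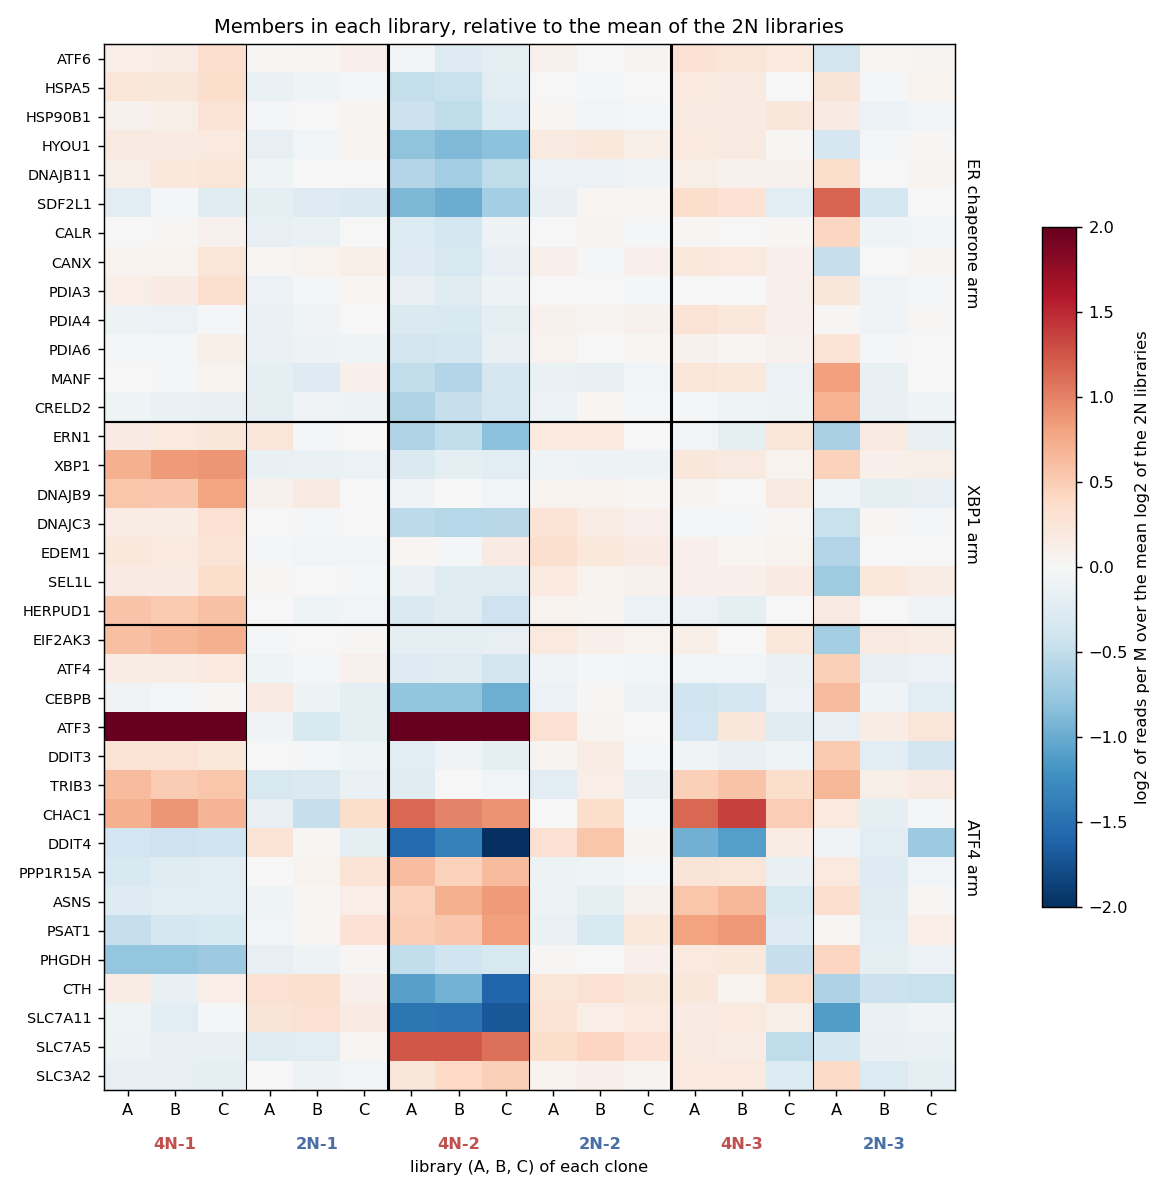
Level of each of the 36 members (rows, by arm) in each of the 18 libraries (columns, A to C of each clone), as log2 of reads per M minus the mean log2 over the 2N libraries. The colour scale ends at 2 and -2, which ATF3 exceeds in 4N-1 and 4N-2 and DDIT4 exceeds in library C of 4N-2. Most chaperone and XBP1 arm genes are below 0 in 4N-2 and above 0 in 4N-1, and library A of 2N-3 differs from B and C of that clone.

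Genes of the chaperone arm were lower in 4N-2 than in 2N-2, and few of them passed in the other pairs. In pair 2, 8 of the 12 chaperone arm genes with an RPKM test fell, none rose, where 16.0% of all 9704 genes tested fell and 21.5% rose. Their median change was -0.36, against 0.04 over all genes tested, and all 13 members of the arm, ATF6 included, had every 4N-2 library below every 2N-2 library, a separation found for 31.0% of all 23398 genes tested on reads. In pair 1, 1 of the 12 rose (HSPA5) and none fell, with 10.6% of all genes rising and 10.3% falling; the median change was 0.13 against -0.01 over all genes. In pair 3 none rose or fell on RPKM, where 3.40% of all genes tested did either. 4 of the 12 had an unadjusted p below 0.05 there, as had 19.7% of all genes, and on reads 0 of 13 passed. Without library A of 2N-3, 12 of the 12 fell in pair 2, where 24.0% of all genes fell, and 4 of the 12 rose in pair 1, where 20.5% of all genes rose. In pair 3, 1 of the 12 rose without that library, where 3.33% of all genes rose. Without library C of 4N-3 as well, 3 of the 12 rose there on RPKM (HSP90B1, SDF2L1 and PDIA4; 12.3% of all genes) and 6 of 13 on reads (10.5% of all genes), and all 12 and all 13 differences were above 0.

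HSPA5 encodes BiP, the main ER chaperone, which also holds the 3 sensors inactive. The gene (ENSG00000044574, chromosome 9, 125234853 to 125241330 in GRCh38) had 684, 676 and 743 reads per M in the 4N-1 libraries, against 531, 544 and 566 in the 2N-1 libraries. It had 417, 427 and 494 reads per M in the 4N-2 libraries, against 575, 569 and 581 in the 2N-2 libraries. The libraries did not overlap in either pair, and the sign was opposite: HSPA5 rose by 0.35 (SE 0.09) on the log2 scale in pair 1 and fell by 0.37 (SE 0.09) in pair 2, with limma adjusted p of 0.0128 and 0.00527. In pair 3 it had 664, 660.3 and 586 reads per M in 4N-3, against 695, 571 and 608 in 2N-3, and the libraries overlapped (0.03, SE 0.09, adjusted p 0.854). The pair 1 rise missed the threshold in 1 of the single-library omissions, without library C of 4N-1, at an adjusted p of 0.0569.

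HYOU1 encodes a large ER chaperone of the HSP70 family that is induced by low oxygen and by ER stress. The gene (ENSG00000149428, chromosome 11, 119044189 to 119057202 in GRCh38) had 125, 118 and 124 reads per M in the 4N-2 libraries, against 248, 254 and 239 in the 2N-2 libraries. This was the largest fall of the arm: its level in 4N-2 was 0.496 of that in 2N-2, and the log2 change was -0.97 (SE 0.09, adjusted p 8.34e-07) on RPKM and -1.01 on reads. In pair 1 it had 249, 244 and 251 reads per M in 4N-1 against 196, 211 and 229 in 2N-1. Those libraries did not overlap, but the change of 0.22 (SE 0.09) did not pass (adjusted p 0.0942), though it did without 2N-3 A and 4N-3 C (adjusted p 0.00315). In pair 3 it had 251, 248 and 223 reads per M in 4N-3 against 173, 212 and 223 in 2N-3, which overlapped (0.25, SE 0.09, adjusted p 0.160).

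The other chaperone arm genes that fell in pair 2 act beside BiP, on disulphide bonds or on new glycoproteins. SDF2L1, which binds the ER co-chaperone complex, averaged 5.02 ± 0.587 reads per M in 4N-2 and 8.94 ± 0.625 in 2N-2 (SD, n = 3 each), a change of -0.72 (SE 0.25). DNAJB11, a co-chaperone of BiP, fell by 0.39 (SE 0.07), and HSP90B1, the ER form of HSP90, by 0.39 (SE 0.09). PDIA4 and PDIA6, which make and break disulphide bonds, fell by 0.31 (SE 0.06) and 0.30 (SE 0.08), and CANX, the membrane lectin that holds new glycoproteins, by 0.29 (SE 0.11). The limma adjusted p of these 6 genes lay between 0.000440 and 0.0465. Of these, SDF2L1 and CANX missed the threshold at 0.0557 and 0.0531 with no RPKM minimum. Of the 18 single-library omissions, SDF2L1 missed it in 5 and CANX in 13, with adjusted p of up to 0.0953 and 0.142. CALR, PDIA3, MANF and CRELD2 did not pass, with changes of -0.24, -0.14, -0.35 and -0.36; CRELD2 passed on reads (-0.43, SE 0.15, adjusted p 0.0310), and all 4 passed on RPKM without 2N-3 A and 4N-3 C, with adjusted p of up to 0.0363. A part of the exons of CRELD2 (3.25%) lies over those of ALG12 on the other strand, and whether the strand was used in counting is not stated.

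ATF6 is the sensor that drives this arm. The gene (ENSG00000118217, chromosome 1, 161766294 to 161964070 in GRCh38) had 76.1, 66.3 and 69.9 reads per M in 4N-2 against 84.4, 78.7 and 82.5 in 2N-2. In pair 1 it had 87.2, 88.5 and 99.9 in 4N-1 against 80.4, 81.9 and 84.9 in 2N-1, and in pair 3 it had 96.8, 93.6 and 91.1 in 4N-3 against 61.6, 81.3 and 82.1 in 2N-3. In each pair the libraries of the clones did not overlap, below in 4N-2 and above in 4N-1 and 4N-3. The changes on reads were 0.15, -0.21 and 0.33 (SE 0.10 each) in pairs 1 to 3, and none passed in limma-voom (adjusted p 0.315, 0.0957 and 0.0528). Without 2N-3 A and 4N-3 C all 3 passed, with changes of 0.15 (SE 0.06), -0.21 (SE 0.06) and 0.22 (SE 0.07) and adjusted p of 0.03501, 0.00312 and 0.0318. Per kilobase of exon, ATF6 had a median of 10.4 reads per M over the 18 libraries, against 443 for CALR and for HSP90B1, the most abundant members, 148 for HSPA5 and 144 for CANX.

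Promoter sequence of the members was searched for the motifs of these arms, in the RefSeq table for GRCh38.p14, which holds 250 bases before and 50 bases after each start and matched 34 of the 36 members. The ER stress element (ERSE) is written as CCAAT, 9 free bases and CCACG, ERSE-II as ATTGG, 1 free base and CCACG, the unfolded protein response element (UPRE) as TGACGTGG, and the CEBP-ATF element bound by ATF4 (CARE) as TGATGNAA, each read on both strands. An ERSE or ERSE-II match lay in 8 of 12 chaperone arm genes, 2 of 7 XBP1 arm genes and 0 of 15 ATF4 arm genes, against 44 of 27305 genes of the table (0.161%). The motifs were chosen as those of these arms and the 44 genes include the 10 members, so this contrast is not a test. Of the 10 members with an ERSE or ERSE-II match 7 fell in pair 2 and none rose. Of the 9 genes of these arms with a promoter but no match 4 fell and none rose. Each was counted on the fit used for it. Of all genes 16.0% fell and 21.5% rose in pair 2 on RPKM, and 21.4% and 20.4% on reads. HSPA5 and HYOU1 are shown because they encode the main chaperone of the arm and its largest change; capitals mark ERSE in HSPA5 and ERSE-II in HYOU1, which is on the opposite strand, so that it reads CGTGG, 1 base and CCAAT, and the UPRE letters of HYOU1 overlap the first of its 2 matches.
HSPA5 (chr9:125241360-125241439, minus strand): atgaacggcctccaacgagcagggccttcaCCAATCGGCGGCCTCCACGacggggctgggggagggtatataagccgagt
HYOU1 (chr11:119057244-119057420, minus strand): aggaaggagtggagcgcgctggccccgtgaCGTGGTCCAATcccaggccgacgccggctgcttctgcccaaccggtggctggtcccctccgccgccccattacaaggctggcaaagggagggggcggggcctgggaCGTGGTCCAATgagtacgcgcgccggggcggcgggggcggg
The windows end 17 bases before the start of HSPA5 and 39 before that of HYOU1. A match of letters is a description and not a site of binding, and no factor was measured.

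**Figure D2:**
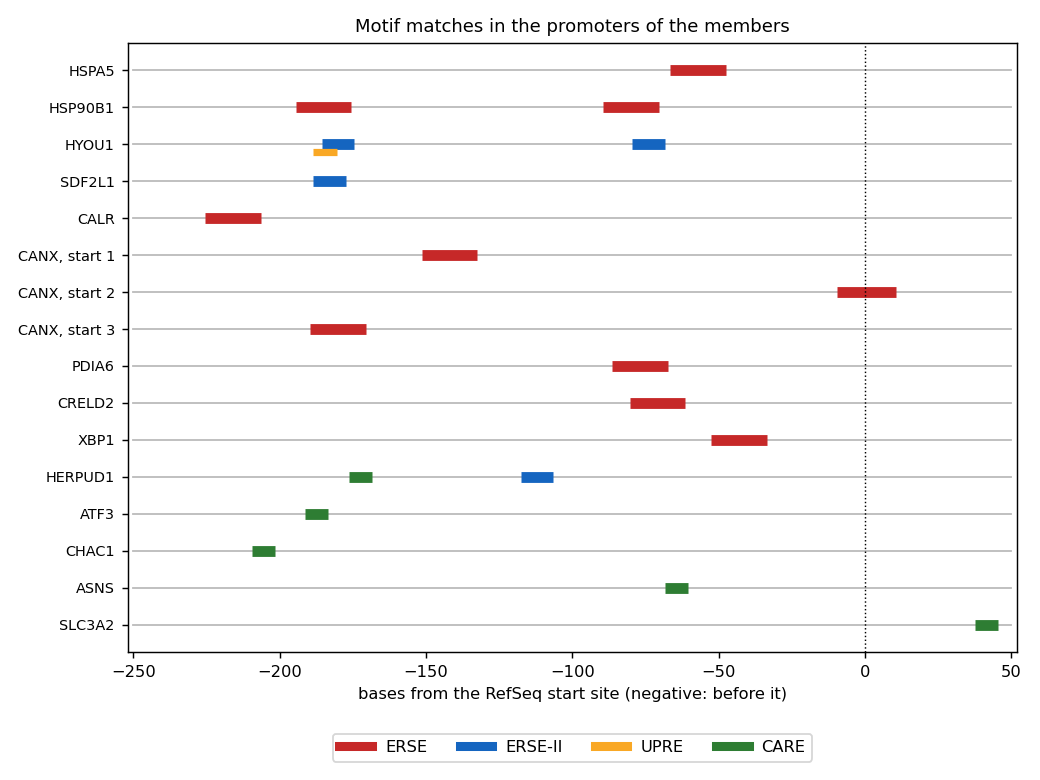
Matches of ERSE, ERSE-II, UPRE and CARE (coloured bars, to scale) in the RefSeq promoters of the members that hold any, by bases from the start site (horizontal axis); CANX holds a match at 3 of its 4 starts. ERSE and ERSE-II fall in chaperone arm genes, XBP1 and HERPUD1, and CARE in HERPUD1, ATF3, CHAC1, ASNS and SLC3A2.

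The XBP1 arm was higher in 4N-1 than in 2N-1 and partly lower in 4N-2 than in 2N-2. In pair 1, 3 of the 5 genes with an RPKM test rose, and no gene fell, where 10.6% of all genes rose and 10.3% fell, with a median change of 0.46 against -0.01 over all genes tested. In pair 2, 1 of 5 fell on RPKM (HERPUD1), where 16.0% of all genes fell, and 3 of 7 fell on reads, where 21.4% of all genes tested on reads fell. None passed in pair 3 on either scale; 2 of 5 had an unadjusted p below 0.05 there, as had 19.7% of all genes. 4N-1 was the highest and 4N-2 the lowest of the 4N clones for all 7 genes of the arm, an order that was not counted over all genes. Without library A of 2N-3, 5 of 5 rose in pair 1, where 20.5% of all genes rose, and 4 of 5 fell in pair 2, where 24.0% fell. Without 4N-3 C as well the counts were the same, where 22.7% of all genes rose in pair 1 and 25.4% fell in pair 2, and none passed in pair 3.

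XBP1 is the transcription factor that gives the arm its name. The gene (ENSG00000100219, chromosome 22, 28794555 to 28800597 in GRCh38) had 55.1, 60.5 and 62.1 reads per M in the 4N-1 libraries, against 30.3, 30.4 and 30.8 in the 2N-1 libraries. It had 27.5, 29.2 and 28.6 in 4N-2 against 32.0, 31.1 and 31.1 in 2N-2, and 39.2, 37.8 and 35.3 in 4N-3 against 46.3, 35.8 and 36.4 in 2N-3. 4N-1 thus stood above the other 5 clones with no overlap. The mean in 4N-1 was 1.94 times that in 2N-1 and the log2 change was 0.89 (SE 0.08), with a limma adjusted p of 5.19e-06. In pairs 2 and 3 the changes were -0.13 and -0.06 (SE 0.08 each) and did not pass (adjusted p 0.235 and 0.631). With 2N-3 A and 4N-3 C left out the pair 2 fall of 0.13 passed (SE 0.04, adjusted p 0.0153), and in pair 3 the sign turned (0.09, adjusted p 0.257). Splice forms are not given in the files, so the spliced messenger was not measured.

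HERPUD1 and DNAJB9 rose in pair 1 as well. HERPUD1, a membrane protein of the degradation complex of the ER, averaged 72.3 ± 1.72 reads per M in 4N-1 and 47.6 ± 1.53 in 2N-1 (SD, n = 3 each), a rise of 0.55 (SE 0.07, limma adjusted p 0.000124). It averaged 39.4 ± 2.54 in 4N-2 and 49.2 ± 3.49 in 2N-2, a fall of 0.28 (SE 0.07, adjusted p 0.00671). DNAJB9, a co-chaperone that returns ERN1 to its inactive form, averaged 18.4 ± 1.88 in 4N-1 and 12.6 ± 0.745 in 2N-1, a rise of 0.46 (SE 0.06, adjusted p 0.000186), and did not pass in pair 2 (-0.08) or pair 3 (0.18). A stretch of its exons (6.45%) lies over those of THAP5 on the other strand, which had more reads than DNAJB9 (means of 1193 and 566 a library). EDEM1 and SEL1L, which pick out and pass on misfolded glycoproteins, passed in no pair with all libraries; their differences were 0.23 and 0.19 in pair 1, -0.15 and -0.26 in pair 2, and 0.21 and 0.18 in pair 3. Without 2N-3 A and 4N-3 C both rose in pair 1 and fell in pair 2, with adjusted p of up to 0.0105, and the pair 3 difference of SEL1L turned to -0.06.

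ERN1, the kinase and nuclease that splices XBP1, was lower in 4N-2. The gene (ENSG00000178607, chromosome 17, 64039142 to 64130819 in GRCh38) had 8.54, 8.71 and 8.92 reads per M in 4N-1 against 9.02, 7.37 and 7.69 in 2N-1, which overlapped. It had 4.99, 5.42 and 4.28 in 4N-2 against 8.68, 8.67 and 7.68 in 2N-2, and 7.29, 6.70 and 8.97 in 4N-3 against 4.87, 8.60 and 6.88 in 2N-3. The libraries did not overlap in pair 2, with a fall of 0.78 (SE 0.17, limma-voom adjusted p 0.00108); the changes in pairs 1 and 3 were 0.12 (SE 0.16) and 0.19 (SE 0.16) and did not pass. With 2N-3 A and 4N-3 C left out the pair 3 difference turned to -0.14 (SE 0.13), which did not pass either. DNAJC3, an inhibitor of the eIF2 kinases that also serves as a co-chaperone in the ER, averaged 45.5 ± 0.932 in 4N-2 and 75.2 ± 4.60 in 2N-2 (SD, n = 3 each) and fell by 0.72 (SE 0.10, limma-voom adjusted p 1.19e-05). Without the same 2 libraries it rose by 0.22 in pair 1 (SE 0.05, adjusted p 0.00194), which did not pass with all libraries (adjusted p 0.130).

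The promoters of XBP1 and HERPUD1 are shown because both genes rose in pair 1; capitals mark ERSE in XBP1 and ERSE-II in HERPUD1, both on the strand of the gene, in RefSeq sequence of GRCh38.p14.
XBP1 (chr22:28800572-28800651, minus strand): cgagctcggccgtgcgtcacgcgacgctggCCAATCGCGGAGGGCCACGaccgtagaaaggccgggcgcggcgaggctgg
HERPUD1 (chr16:56931991-56932070, plus strand): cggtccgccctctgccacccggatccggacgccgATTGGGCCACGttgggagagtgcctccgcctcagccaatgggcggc
A few bases of these windows lie in exons of other annotated transcripts (26 and 23). HERPUD1 also has a CARE match, 176 to 169 bases before its start, which lies outside the window.

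**Figure D3:**
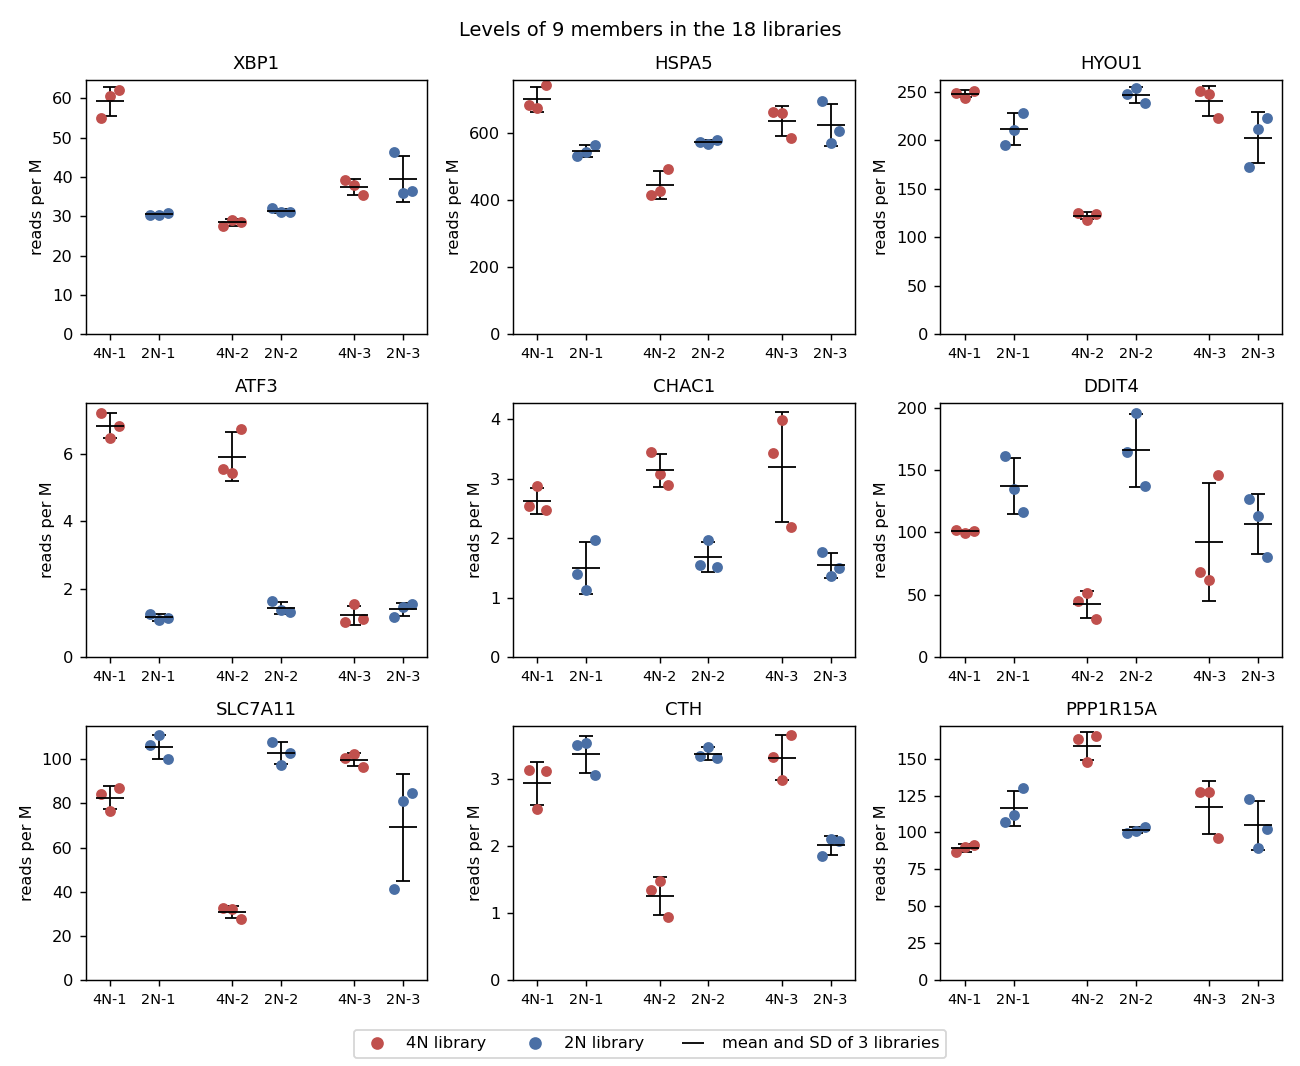
Levels of 9 members in reads per M (vertical axes, from 0) in the libraries of each clone (points; 4N red, 2N blue), with the mean and SD of 3 libraries in black. XBP1 is high in 4N-1, ATF3 in 4N-1 and 4N-2, and CHAC1 in all 3 4N clones, whereas HYOU1, SLC7A11 and CTH are low in 4N-2.

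The ATF4 arm had changes in both directions. In pair 1, 2 of the 11 genes with an RPKM test fell and no gene rose, where 10.3% of all genes fell and 10.6% rose, and 4 of the 5 tested on reads alone rose, where 10.0% did. In pair 2, 4 rose and 3 fell on RPKM, where 21.5% of all genes rose and 16.0% fell. Of those that fell 2 were called 2-fold lower, as were 2.38% of all genes. Of the 5 tested on reads alone 2 rose and 1 fell there, where 20.4% and 21.4% of all genes did. In pair 3 none passed on RPKM, and on reads 2 of 16 rose, where 3.36% of all genes tested did. The median changes on RPKM were -0.18, -0.20 and 0.05 in pairs 1 to 3, against -0.01, 0.04 and -0.02 over all genes tested. Pair 3 changed with the libraries that stand apart: without 2N-3 A and 4N-3 C, 7 of 11 rose on RPKM, where 12.3% of all genes did, and without library A of 2N-3 alone none did. Those 7 were PPP1R15A, ASNS, PSAT1, PHGDH, SLC7A11, SLC7A5 and SLC3A2, with changes of 0.20 to 0.72.

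Neither of the central factors of the arm passed in any pair with all libraries, and both rose in pair 1 and fell in pair 2 without 2N-3 A and 4N-3 C. ATF4 (ENSG00000128272, chromosome 22, 39519695 to 39522685 in GRCh38) had 225, 224 and 230.5 reads per M in 4N-1 against 190.4, 196 and 215 in 2N-1. It had 169, 171 and 156 in 4N-2 against 193, 197 and 194 in 2N-2, and 193, 195 and 184 in 4N-3 against 282, 179 and 185 in 2N-3. The libraries did not overlap in pairs 1 and 2, above in 4N-1 and below in 4N-2, with changes of 0.18, -0.23 and -0.14 (SE 0.13 each) in pairs 1 to 3 and limma adjusted p of 0.379, 0.176 and 0.497. Without the 2 libraries ATF4 rose by 0.18 in pair 1 and fell by 0.23 in pair 2 (SE 0.05 each, adjusted p 0.00972 and 0.00115), and the pair 3 difference turned to 0.09 (SE 0.06, adjusted p 0.320). ATF4 is controlled mostly through its translation, which messenger levels do not show.

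DDIT3 encodes CHOP, the factor of this arm linked to cell death. The gene (ENSG00000175197, chromosome 12, 57516588 to 57521737 in GRCh38) had 32.6, 32.8 and 31.3 reads per M in 4N-1 against 27.1, 26.5 and 25.4 in 2N-1. It had 23.4, 25.8 and 23.8 in 4N-2 against 28.2, 29.996 and 26.4 in 2N-2, and 25.9, 24.3 and 25.4 in 4N-3 against 38.9, 23.5 and 21.0 in 2N-3. The order of the clones was that of ATF4 in pairs 1 and 2, and the changes of 0.27, -0.20 and -0.08 (SE 0.15 each) did not pass (limma adjusted p 0.218, 0.323 and 0.729). Without the 2 libraries DDIT3 rose by 0.27 in pair 1 and fell by 0.20 in pair 2 (SE 0.05 each, adjusted p 0.00143 and 0.00757), and the pair 3 difference turned to 0.16 (SE 0.07, adjusted p 0.111). A stretch of the exons of DDIT3 (27.2%) lies over those of MARS1 on the other strand, a gene with more reads (means of 7044 and 1182 a library), so its counts are uncertain unless the strand was used.

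EIF2AK3, the ER membrane kinase that starts the arm under ER stress, was higher in 4N-1. The gene (ENSG00000172071, chromosome 2, 88556741 to 88627576 in GRCh38) had 26.4, 27.7 and 28.5 reads per M in 4N-1 against 17.3, 17.5 and 17.8 in 2N-1. It had 15.5, 15.3 and 15.6 in 4N-2 against 19.96, 18.7 and 18.4 in 2N-2, and 19.1, 17.6 and 20.3 in 4N-3 against 10.9, 19.8 and 19.3 in 2N-3. It rose by 0.65 (SE 0.15, limma-voom adjusted p 0.00412) in pair 1, and the changes of -0.30 (SE 0.15) and 0.22 (SE 0.15) in pairs 2 and 3 did not pass. Library A of 2N-3 was the low one of its clone; without it and 4N-3 C, EIF2AK3 fell in pair 2 (-0.30, SE 0.06, adjusted p 0.000183) and the pair 3 difference turned to -0.10 (SE 0.07, adjusted p 0.400).

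ATF3, a stress-induced factor that ATF4 and many other signals can switch on, had the largest rise of the set. The gene (ENSG00000162772, chromosome 1, 212565334 to 212620777 in GRCh38) had 7.19, 6.46 and 6.82 reads per M in 4N-1 against 1.28, 1.08 and 1.16 in 2N-1. It had 5.55, 5.42 and 6.73 in 4N-2 against 1.65, 1.39 and 1.32 in 2N-2. The means were 5.80 and 4.06 times those of the 2N partners, and the log2 changes on reads were 2.52 (SE 0.16) and 2.02 (SE 0.15), with limma-voom adjusted p of 1.05e-08 and 9.79e-09. In pair 3 it had 1.03, 1.56 and 1.13 in 4N-3 against 1.19, 1.48 and 1.57 in 2N-3, which overlapped (-0.20, SE 0.19, adjusted p 0.530). Per kilobase of exon ATF3 was the scarcest member, with a median of 0.376 reads per M over the 18 libraries and 1.78 at most; its read counts were 216 to 308 a library in 4N-1 and 4N-2 and 39 to 82 in the other 12 libraries.

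CHAC1, which breaks down glutathione and is a target of ATF4, was the member that rose in all 3 pairs. The gene (ENSG00000128965, chromosome 15, 40952962 to 40956519 in GRCh38) had 2.54, 2.87 and 2.47 reads per M in 4N-1 against 1.39, 1.13 and 1.98 in 2N-1. It had 3.45, 3.09 and 2.89 in 4N-2 against 1.55, 1.97 and 1.52 in 2N-2, and 3.43, 3.99 and 2.18 in 4N-3 against 1.77, 1.36 and 1.504 in 2N-3. In each pair every 4N library was above every 2N library. The changes on reads were 0.85 (SE 0.23), 0.90 (SE 0.21) and 1.01 (SE 0.22), with limma-voom adjusted p of 0.0127, 0.00236 and 0.00829, and only the last was called. Of all 23398 genes tested on reads 198 (0.846%) rose in all 3 pairs. CHAC1 rests on 47 to 174 reads a library, and the pair 1 rise missed the threshold without library B of 2N-1 (0.67, adjusted p 0.0825) or library B of 4N-1 (adjusted p 0.0546), as the pair 3 rise did without library B of 4N-3 (0.83, adjusted p 0.0544). Across pairs, with the 6 clone means as the samples, its change was 0.92 (SE 0.20) and did not pass (adjusted p 0.797).

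TRIB3, a pseudokinase that restrains the arm, averaged 16.3 ± 0.684 reads per M in 4N-1 and 9.30 ± 0.650 in 2N-1 (SD, n = 3 each). It rose by 0.81 (SE 0.13, limma-voom adjusted p 0.000309) in pair 1, and the differences of -0.03 and 0.15 in pairs 2 and 3 did not pass, though without 2N-3 A and 4N-3 C it rose by 0.37 (SE 0.10, adjusted p 0.0128) in pair 3. CEBPB, a partner of ATF4 on DNA, averaged 24.5 ± 1.79 in 4N-2 and 42.1 ± 2.12 in 2N-2 and fell by 0.76 (SE 0.17, limma adjusted p 0.00242) in that pair. PPP1R15A (GADD34), which brings the phosphatase to eIF2 and so ends the response, went in opposite directions. It averaged 89.4 ± 2.56 in 4N-1 and 116 ± 11.96 in 2N-1, a fall of 0.37 (SE 0.12, adjusted p 0.0470), and 159 ± 9.51 in 4N-2 and 102 ± 1.89 in 2N-2, a rise of 0.63 (SE 0.12, adjusted p 0.000850). The fall in pair 1 was close to the threshold and missed it in 15 of the 18 single-library omissions, at adjusted p of up to 0.1996, and with no RPKM minimum, at 0.0682.

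DDIT4 (REDD1), an inhibitor of mTORC1 that low oxygen and ATF4 induce, had the largest fall of the set. The gene (ENSG00000168209, chromosome 10, 72273920 to 72276036 in GRCh38) had 45.1, 51.8 and 30.8 reads per M in 4N-2 against 164, 196 and 137 in 2N-2. The mean in 4N-2 was 0.257 of that in 2N-2, and the log2 change was -1.95 (SE 0.28, limma adjusted p 6.99e-05). It had 102, 99.9 and 101 in 4N-1 against 161, 134 and 116 in 2N-1, which did not overlap but did not pass (-0.43, SE 0.28, adjusted p 0.332). In pair 3 it had 68.1, 61.6 and 146 in 4N-3 against 127, 113 and 80.3 in 2N-3 (-0.30, SE 0.28), and library C of 4N-3 stood above libraries A and B. Without that library and library A of 2N-3, DDIT4 fell on reads by 0.43 (SE 0.15) in pair 1 and by 0.56 (SE 0.19) in pair 3, with limma-voom adjusted p of 0.0239 and 0.0415. On RPKM without the same 2 libraries neither change passed. It was -0.43 (SE 0.19, limma adjusted p 0.0884) in pair 1 and -0.55 (SE 0.24, adjusted p 0.124) in pair 3.

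Genes of amino acid supply and redox balance split in 4N-2. The transporter subunit SLC7A5, which brings in large neutral amino acids, averaged 302 ± 16.3 reads per M in 4N-2 and 168 ± 8.21 in 2N-2 (SD, n = 3 each), a rise of 0.77 (SE 0.12). ASNS, which makes asparagine, and PSAT1, the second enzyme of serine synthesis, rose by 0.57 (SE 0.16) and 0.56 (SE 0.19), with limma adjusted p from 0.000162 to 0.0302 for these 3 genes. Both have pseudogene copies, and how the authors counted shared reads is not given. PSAT1 missed the threshold in some omissions, at an adjusted p of up to 0.117 without library B of 2N-2. PHGDH, the first enzyme of serine synthesis, did not go with PSAT1: it averaged 74.1 ± 1.38 in 4N-1 and 118 ± 7.57 in 2N-1 and fell by 0.46 (SE 0.12, adjusted p 0.0160) in pair 1, and by 0.45 (SE 0.16, limma-voom adjusted p 0.0295) on reads in pair 2, where the RPKM change of -0.32 (SE 0.12) missed the threshold (adjusted p 0.0544). The pair 1 fall of PHGDH missed it without library C of 2N-1 or library A or B of 4N-1, at adjusted p of up to 0.0677. Without 2N-3 A and 4N-3 C PHGDH fell in pair 2 on RPKM as well (adjusted p 2.21e-05), and PSAT1 fell in pair 1 (-0.36, SE 0.11, adjusted p 0.0205). SLC3A2, the shared heavy chain of SLC7A5 and SLC7A11, passed in no pair with all libraries, with changes of -0.11, 0.26 and 0.05 (SE 0.13 each). With 2N-3 A and 4N-3 C left out it rose by 0.26 in pair 2 (SE 0.05, adjusted p 0.000628) and by 0.37 in pair 3 (SE 0.06, adjusted p 0.00192).

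SLC7A11 is the light chain of the cystine importer, whose cystine feeds glutathione. The gene (ENSG00000151012, chromosome 4, 138164097 to 138242349 in GRCh38) had 32.8, 32.3 and 27.7 reads per M in 4N-2 against 108, 97.6 and 103 in 2N-2. The mean in 4N-2 was 0.301 of that in 2N-2. The log2 change was -1.02 (SE 0.12, limma adjusted p 8.96e-06) on RPKM, where the pseudocount of 0.5 shrinks it, and -1.73 (SE 0.18) on reads. In pair 1 it had 84.1, 76.7 and 87.1 in 4N-1 against 106, 111 and 100.04 in 2N-1 (-0.25, SE 0.12, adjusted p 0.158), and in pair 3 100.4, 102 and 96.7 in 4N-3 against 41.4, 81.3 and 84.7 in 2N-3 (0.39, SE 0.12, adjusted p 0.0981). Neither passed, although the libraries did not overlap. Without 2N-3 A and 4N-3 C both passed, with a fall of 0.25 in pair 1 and a rise of 0.20 in pair 3 (adjusted p 0.000787 and 0.0287).

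CTH makes cysteine from cystathionine and so feeds the same pool. The gene (ENSG00000116761, chromosome 1, 70411218 to 70439851 in GRCh38) had 1.34, 1.48 and 0.942 reads per M in 4N-2 against 3.34, 3.49 and 3.31 in 2N-2, and 3.33, 2.98 and 3.66 in 4N-3 against 1.86, 2.11 and 2.07 in 2N-3. It fell by 1.46 (SE 0.16) in pair 2 and rose by 0.71 (SE 0.15) in pair 3 on reads, with limma-voom adjusted p of 1.12e-06 and 0.00652. In pair 1 it had 3.13, 2.56 and 3.12 in 4N-1 against 3.52, 3.54 and 3.06 in 2N-1, which overlapped (-0.21, SE 0.14, adjusted p 0.350). Among the 2N clones 2N-3 was the low one, and CTH was 1 of the 5 members whose levels differed among the 2N clones on reads (adjusted p of the limma-voom F test 0.00502).

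A CARE match lay in 4 of 15 ATF4 arm genes with a promoter (ATF3, ASNS, SLC3A2 and CHAC1) and in HERPUD1, against 4.46% of the 27305 genes. These 5 genes had 3 rises in pair 1, 3 rises and 1 fall in pair 2, and 1 rise in pair 3. The other 11 ATF4 arm genes with a promoter had 2 rises and 2 falls in pair 1, 3 and 3 in pair 2, and 1 rise in pair 3. Each gene was counted on the fit used for it. Of all genes, 10.6% rose and 10.3% fell in pair 1 on RPKM, and 10.0% and 9.04% on reads. In pair 2 these shares were 21.5% and 16.0% on RPKM, and 20.4% and 21.4% on reads. In pair 3, 1.99% of all genes rose on RPKM and 3.36% on reads. Whether a match goes with a change was not tested. The matches of ATF3, CHAC1 and ASNS are shown in RefSeq sequence of GRCh38.p14, with the CARE letters in capitals, since these genes rose in pair 2; the match of CHAC1 is on the opposite strand. The windows of CHAC1 and ASNS are kept short because they lie in exons of other annotated transcripts.
ATF3 (chr1:212565180-212565259, plus strand): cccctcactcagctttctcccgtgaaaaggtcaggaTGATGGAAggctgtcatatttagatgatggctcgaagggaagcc
CHAC1 (chr15:40953251-40953280, plus strand): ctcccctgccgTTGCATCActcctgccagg
ASNS (chr7:97872458-97872487, minus strand): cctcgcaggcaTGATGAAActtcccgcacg

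**Figure D4:**
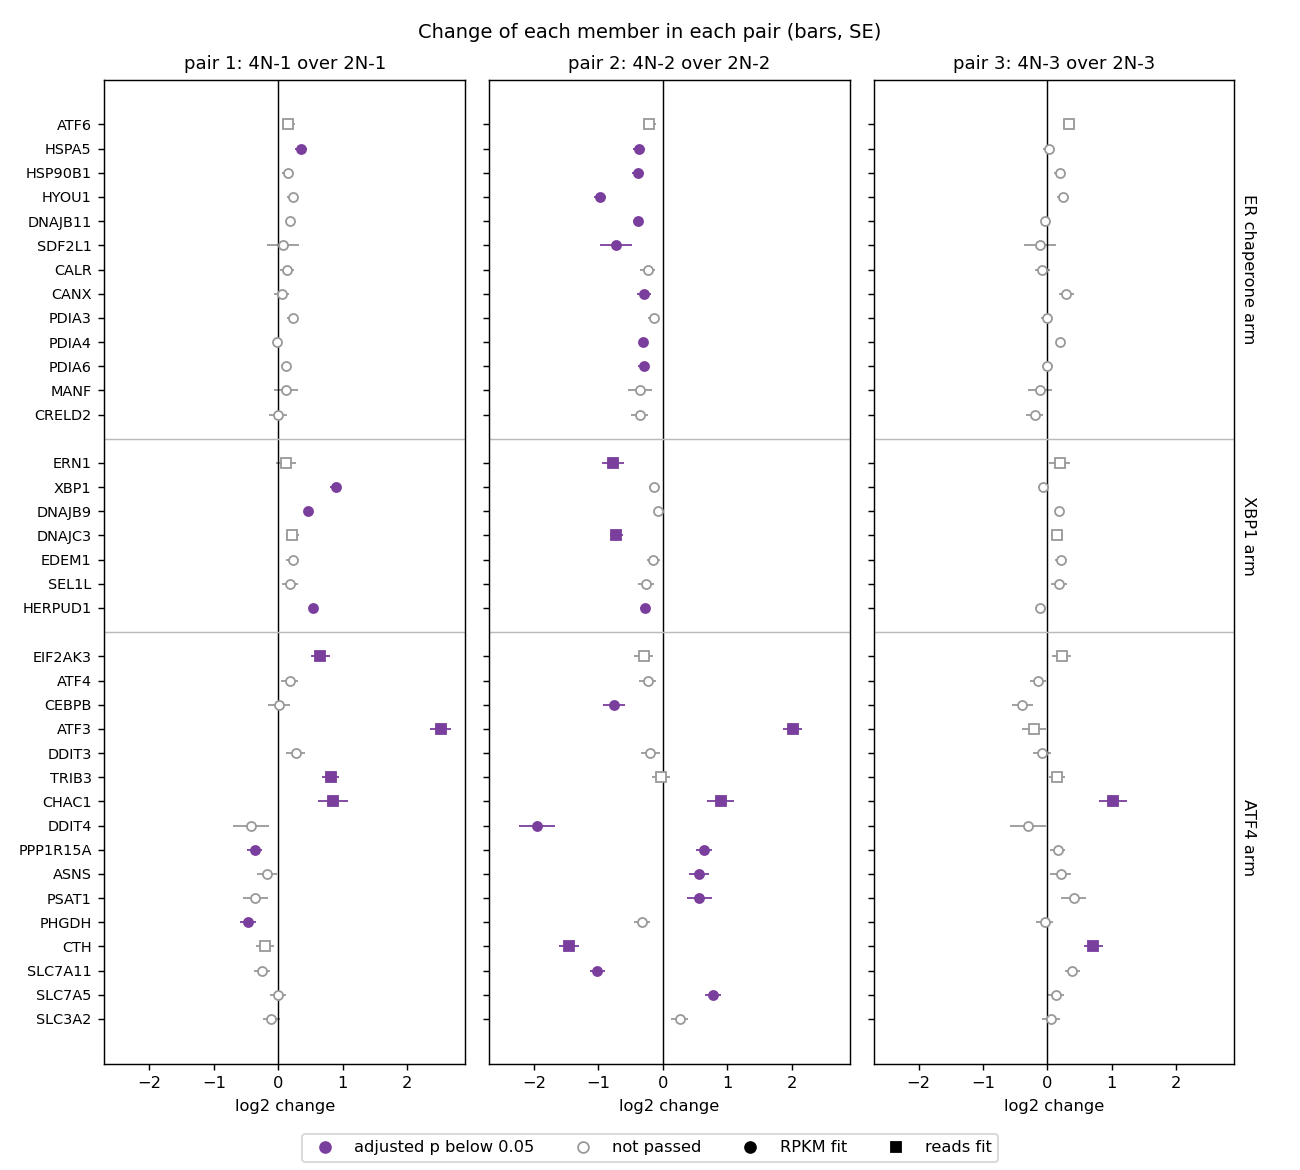
Log2 change of each member (rows, by arm), 4N minus 2N, in pairs 1, 2 and 3 (panels), with its SE as a bar; filled purple marks an adjusted p below 0.05, circles the RPKM fit and squares the fit on reads. HSPA5, HERPUD1 and PPP1R15A have filled points on opposite sides of 0 in pairs 1 and 2, and CHAC1 is filled and above 0 in all 3.

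Counted over all 36 members, the pairs differed from each other. On RPKM, pair 1 had 4 rises and 2 falls among the 28 members tested, where 10.6% and 10.3% of all genes did the same, and pair 2 had 4 rises and 12 falls (21.5% and 16.0% of all genes). Pair 3 had none, where 1.99% of all genes rose and 1.41% fell. On reads, pair 1 had 8 rises and 2 falls, where 10.0% and 9.04% of all genes did the same. Pair 2 had 6 rises and 17 falls (20.4% and 21.4% of all genes), and pair 3 had 2 rises and no fall (3.36% and 2.95%). Those called on reads were 1 higher in pair 1 (2.30% of all genes), 1 higher and 4 lower in pair 2 (6.87% and 8.13%) and 1 higher in pair 3 (1.07%). A moderated F test of the 3 pair differences passed for 17 of the 28 members on RPKM, where 39.0% of all genes passed, and for 25 of the 36 on reads, where 41.4% did. Without library A of 2N-3 all 28 passed, where 58.7% of all genes did. With both outlying libraries left out, pair 1 had 11 rises and 4 falls on RPKM, where 22.7% and 24.2% of all genes did the same. Pair 2 then had 5 rises and 22 falls (33.9% and 25.4% of all genes), and pair 3 had 10 rises and no fall (12.3% and 5.47%). Library A of 2N-3 alone made most of that difference in pairs 1 and 2 (11 rose and 3 fell, and 5 rose and 22 fell, without it), and in pair 3 there was 1 rise and no fall without 2N-3 A, where 3.33% of all genes rose and 1.60% fell, 1 rise without 2N-3 C, and 4 without 4N-3 C. The 2 falls of pair 1 were 0 without any 1 of library C of 2N-1 and libraries A and B of 4N-1, and 1 without most other single libraries. On reads, leaving out library A of 2N-3 gave 16 rises in pair 1 and 27 falls in pair 2. In pair 3 the rises on reads numbered 4 to 6 without any 1 of the 2N-3 libraries, 6 without C of 4N-3 and 1 without B of 4N-3. Shares of all genes are not given for these omissions on reads or for the other single libraries on RPKM. Such shares grew without 2N-3 A and 4N-3 C. On reads 21.0% of all genes then rose in pair 1 and 29.6% fell in pair 2, against 10.0% and 21.4% with all libraries.

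With the clone as the sample, no member passed over the 3 pairs. With 3 clone means of 4N against 3 of 2N and the pair as a block, 0 of 28 members passed in limma on RPKM, where 0.00% of all 9704 genes did, and 0 of 36 in limma-voom on reads. At an unadjusted p below 0.05 there was 1 member on RPKM (DDIT4, -0.89, SE 0.35) and there were 2 on reads (ATF3, 1.56, SE 0.54, and CHAC1), beside 4.03% and 4.59% of all genes. The median change over the members was -0.01 on RPKM.

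The members varied more among the 4N clones than among the 2N clones, as did all genes tested, by the F tests below. The span of the clone means, from the lowest to the highest of 3, had a median of 0.71 log2 units over the 4N clones and 0.21 over the 2N clones, or 0.17 with library A of 2N-3 left out, and it was wider among the 4N clones for 35 of 36 members, EDEM1 being the other. Spans are given for the members alone and not for all genes, so this count is not set against a share of all genes. An F test among the 4N clones passed for 23 of the 28 members on RPKM and one among the 2N clones for none, where 50.0% and 1.58% of all genes passed. On reads 30 of 36 passed among the 4N clones and 5 among the 2N clones (XBP1, TRIB3, CTH, SLC7A11 and SLC7A5), where 51.1% and 4.44% of all genes did. Without library A of 2N-3, 3 of 28 passed among the 2N clones on RPKM, where 4.04% of all genes did, and 1 did without 2N-3 C or without 4N-3 C. Without both 2N-3 A and 4N-3 C, 7 of 28 passed among the 2N clones on RPKM, where 7.41% of all genes did, and 12 of 36 on reads, where 12.5% did. The number that passed on reads fell to 1 or 2 when any of most other single libraries was left out. 4N-2 was the lowest 4N clone for 13 of 13 chaperone arm genes, 7 of 7 XBP1 arm genes and 8 of 16 ATF4 arm genes, and 4N-3 was the highest for 8 of 13 chaperone arm genes. These orders were not counted over all genes.

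**Figure D5:**
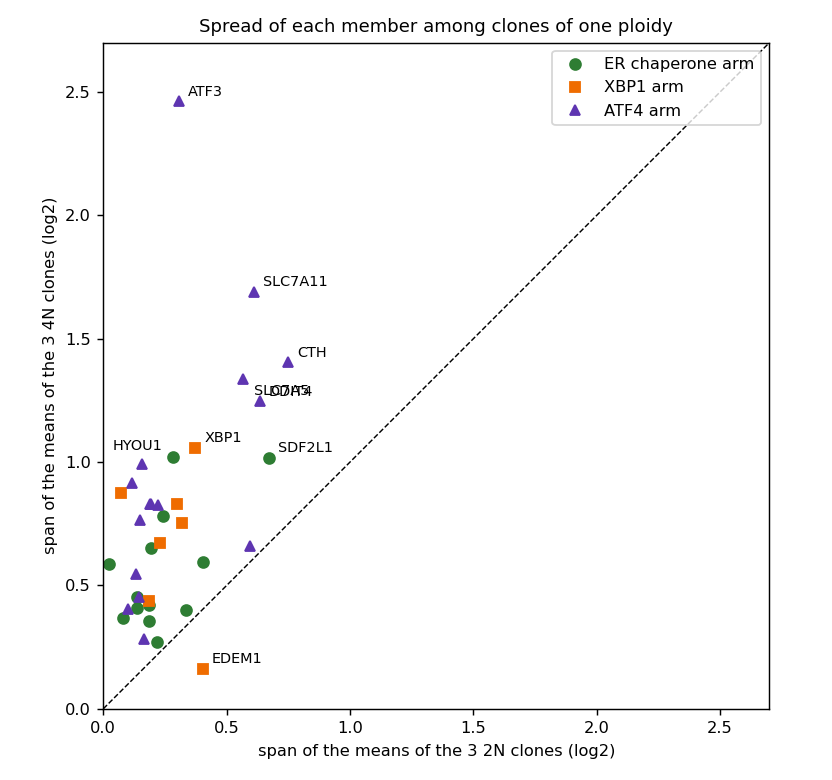
Span of the 3 clone means of each member, in log2 units of reads per M, among the 4N clones (vertical axis) against the 2N clones (horizontal axis); the dashed line marks equal spans. All members but EDEM1 lie above the line, and ATF3 has the widest span among the 4N clones, at 2.46. Spans of genes other than the members are not shown.

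Other genes of these pathways were counted beside the members. Among 41 other ER folding, transport and degradation genes, 34 had an RPKM test, and these had 13 rises and no fall in pair 1 (10.6% and 10.3% of all genes), 12 rises and 5 falls in pair 2 (21.5% and 16.0%), and 2 rises and no fall in pair 3 (1.99% and 1.41%), with medians of 0.20, 0.04 and 0.10. None of the 34 was called on RPKM, and 3 of the 41 were called on reads. In pair 1, 1 was called higher, as were 2.30% of all genes, and 1 lower, for which no share is given. In pair 2, 1 was called higher and 1 lower, where 6.87% and 8.13% of all genes were. KDELR3, a receptor that returns ER proteins from the Golgi, averaged 22.5 ± 1.09 reads per M in 4N-1 and 10.9 ± 0.185 in 2N-1 (SD, n = 3 each; 1.05, SE 0.08), and 29.4 ± 1.38 in 4N-2 and 12.6 ± 0.885 in 2N-2 (1.22, SE 0.08). EDEM3, of the same family as EDEM1, averaged 24.0 ± 0.457 in 4N-2 and 62.9 ± 3.82 in 2N-2 (-1.39, SE 0.19), and DERL3, of the degradation channel, 0.942 ± 0.163 in 4N-1 and 2.54 ± 0.165 in 2N-1 (-1.43, SE 0.32). Among 26 other ATF4 target genes with an RPKM test there were 3 rises and 1 fall in pair 1, 7 rises and 4 falls in pair 2, and 1 rise in pair 3, read against the same shares of all genes, with medians of 0.07, 0.19 and 0.22. With 2N-3 A and 4N-3 C left out, 21 of the 26 rose and 1 fell in pair 3, where 12.3% of all genes rose and 5.47% fell, and of the 34 ER genes 12 rose and 1 fell. The one of the 26 that was called was VEGFA, a growth factor of vessels that low oxygen also induces. It was called lower in pair 2, as were 2.38% of all genes, at 131 ± 26.0 reads per M in 4N-2 and 588 ± 59.8 in 2N-2 (-2.11, SE 0.17, limma adjusted p 1.99e-07). SESN2, a stress-induced inhibitor of mTORC1 chosen here after its values were seen, rose in all 3 pairs by 0.23, 0.61 and 0.49 (SE 0.05 each). Of 11 genes for eIF2, its kinases and its exchange factor, none passed in pair 1 or 3. In pair 2, 2 rose and 1 fell, where 21.5% and 16.0% of all genes did the same. Without 2N-3 A and 4N-3 C, 2 fell in pair 1, where 24.2% of all genes fell. In pair 2, 6 then rose and 1 fell (33.9% and 25.4% of all genes), and 3 rose in pair 3 (12.3%).

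Genes of mitosis moved with the pairs as well, as a measure of cycling cells. In pair 1 all 12 fell on RPKM, where 10.3% of all genes did, with a median of -1.29. Their sums were 798 to 850 reads per M in 4N-1 against 1950 to 2430 in 2N-1. In pair 2, 5 of 12 rose and none fell, where 21.5% of all genes rose and 16.0% fell. The median was 0.42, and the sums were 2587 to 2800 in 4N-2 against 1712 to 2171 in 2N-2. In pair 3 none passed, or 2 rose without 2N-3 A and 4N-3 C, where 12.3% of all genes rose. The median with all libraries was 0.07 there, and the sums were 1716 to 2769 in 4N-3 against 1752 to 2441 in 2N-3. The part of these levels in the changes of the members was not tested.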

How the data were processed

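PolyA RNA of 6 RPE1 clones, 3 libraries each, was made into stranded TruSeq libraries, per the labels' protocols; cells grew in DMEM with fetal bovine serum. The authors deposited 1 table of RPKM values (reads per kilobase and per M reads) for 57773 genes. CASAVA 1.8.2, TopHat2, edgeR and hg19 are listed, with no role, in the submitters' processing notes; the counter, the annotation and the use of strand are not given in the sources used here. The RPKM lengths match whole gene spans, introns included, within 0.5% for 86.3% of 17878 genes with over 40 reads, so long genes have low RPKM and levels are not shown per RPKM length.

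All values above 0 were whole multiples of 1 read within 0.01 reads, and these reads were recovered for every gene, with library sizes of 36.1 to 54.8 M taken from the RPKM divisors. RPKM + 0.5 on the log2 scale was fitted with limma 3.58.1 (R 4.3.3, trend) over 6 clone means for 9704 genes with 1 RPKM or more in 3 libraries. Reads were fitted with limma-voom for 23398 genes with 10 or more reads in 3 libraries. P-values were adjusted by Benjamini-Hochberg over all genes of a fit. A threshold of 0.05 gave a pass, and 2-fold with it a call. The fits were also run on simulated reads with 1 spread for all libraries. No simulated library stood apart, so that run does not cover the case of 2N-3 A and 4N-3 C. Symbols, exons and GRCh38 coordinates come from GENCODE 29 (52338 genes matched), as no hg19 annotation was used; promoters come from RefSeq (GRCh38.p14).

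The members and lists were chosen with earlier results of these data known. Values in every library are given for the sensors and central factors (HSPA5, XBP1, ATF6, ERN1, EIF2AK3, ATF4, DDIT3) and for members called in a pair or passing in all 3; of other lists, called genes are named. Alternatives were other pseudocounts, RPKM minimums and centring, the reads, a block of replicate letters, the libraries of a pair alone and each library left out.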

Additional observations from a re-analysis of the deposited data

Results flagged for a closer look

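For 7 members the change differed between the 3 pairs beyond the spread of libraries, by a moderated F test of the 3 differences, and spanned 1 log2 unit or more. HYOU1 had log2 differences of 0.22, -0.97 and 0.25 in pairs 1 to 3 (limma adjusted p 5.159e-06). XBP1 had log2 differences of 0.89, -0.13 and -0.06 (1.422e-05). ATF3 had differences on reads of 2.52, 2.02 and -0.20 (limma-voom adjusted p 3.686e-07). DDIT4 had log2 differences of -0.43, -1.95 and -0.30 (0.006985), and PPP1R15A of -0.37, 0.63 and 0.16 (0.001413). CTH had differences on reads of -0.21, -1.46 and 0.71 (1.633e-06), and SLC7A11 on RPKM of -0.25, -1.02 and 0.39 (6.232e-05). The clones of a group hold 3 libraries each, so no single library was tested as standing apart within its clone.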

How the results depend on the processing

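Counts moved with the 2 libraries that stand apart. On RPKM without both, 11 members rose and 4 fell in pair 1 (22.7% and 24.2% of all genes) and 22 fell in pair 2 (25.4%). In pair 3, 10 rose (12.3%), and 28 differed between pairs (67.7%) and 7 among the 2N clones (7.41%). On reads 18 rose and 6 fell in pair 1 (21.0% and 19.1%) and 27 fell in pair 2 (29.6%). In pair 3, 16 rose and 1 fell on reads (10.5% and 7.59%), and 12 differed among the 2N clones (12.5%). The share over all genes grew too, between pairs on RPKM from 39.0% with all libraries. Shares are not given for the alternatives that follow, so those counts are not set against all genes. With the 6 libraries of a pair alone, 11 rose and 6 fell in pair 1 and 20 fell in pair 2. With no RPKM minimum, 8 rose and 1 fell in pair 1, 2 rose in pair 3 and 2 differed among the 2N clones. With a minimum of 5 RPKM, 1 fell in pair 1 and 2 rose in pair 2. Median centring gave 1 rise in pair 3 and 1 difference among the 2N clones, and the recovered reads 8 rises in pair 1, 2 in pair 3 and 5 differences among the 2N clones. Leaving out single libraries gave, on RPKM, 3 to 11 rises and 0 to 3 falls in pair 1, 10 to 22 falls in pair 2, 0 to 4 rises in pair 3, 12 to 28 differences between pairs and 0 to 3 among the 2N clones. On reads it gave 7 to 16 rises and 1 to 3 falls in pair 1, 13 to 27 falls in pair 2, 1 to 6 rises and 0 to 1 falls in pair 3, and 1 to 6 differences among the 2N clones. The fits with fewer genes or libraries test fewer; otherwise the cause was not tested. Of 860 values of 35 gene results, 795 kept direction and side of the threshold, 50 lost the pass, 15 gained it and none changed sign. The reads fits with libraries left out or with the block were chosen after seeing the data.

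The replicate letters do not pair the libraries: same-letter libraries of a pair correlated at -0.12 to 0.22 in their deviations from clone means, and 1 of 18 libraries correlated best with its own letter. With the letters as a replicate block there were 4 rises and 1 fall in pair 1, 4 rises and 11 falls in pair 2 and no pass in pair 3, and on reads 1 differed among the 2N clones; on RPKM, CANX in pair 2 and PPP1R15A in pair 1 lost the pass with it, at adjusted p of 0.0504 and 0.0706.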
